A study of Rattus norvegicus with 18 samples.

Results

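Molecular chaperones fold other proteins and keep them from aggregating. The genes that encode them, and regulators of 2 stress responses, are described here in the adrenal gland of rats. The group was defined by name: 55 genes for cytosolic, mitochondrial and endoplasmic reticulum (ER) chaperones, for regulators of the unfolded protein response and for heat shock factors. A member was measured where a spot on the array carried its symbol, and the brightest of a gene's probes was used. On that rule 52 of the 55 genes were measured, out of 26583 gene names on the array, and no spot was named Hspa1a, Hsp90b1 or Ahsa1. All 52 passed the filter on dim probes, and each was well above background on all 18 arrays. The measured members were 28 of 30 cytosolic heat shock genes and co-chaperones, 4 of 4 mitochondrial chaperones, 13 of 14 ER chaperones, 5 of 5 regulators of the unfolded protein response, and 2 of 2 heat shock factors. RNA came from whole adrenal glands of 3 inbred rat strains: the normotensive WKY, the spontaneously hypertensive SHR and its stroke-prone relative SHRSP. Each strain was sampled at 3 and at 6 weeks of age with 3 biological replicates per strain and age, and no animal was treated. Sex and the hour of collection are not given in the sources used here. Because whole glands were used, fewer cells of a type and less RNA per cell cannot be told apart in any value below.

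As background, cytosolic heat shock genes are switched on by heat shock factor 1 (Hsf1), which binds repeats of the letters GAA and TTC, called heat shock elements, when unfolded protein accumulates in the cytosol. Hsp70 proteins bind exposed stretches of a client, J proteins deliver the client and trigger ATP hydrolysis, Hsp110 proteins exchange the nucleotide, and Hsp90 with its co-chaperones matures clients such as steroid receptors. Unfolded protein inside the ER is sensed by 3 membrane proteins, IRE1, PERK and Atf6. IRE1 splices the mRNA of Xbp1, PERK raises translation of Atf4 and so the transcription of Ddit3, and cleaved Atf6 together with Xbp1 acts on ER stress elements in the promoters of ER chaperones. The adrenal cortex makes steroids with enzymes of the ER and the mitochondrion, and the medulla makes catecholamines.

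Some promoters of the members hold the letters of the elements described for both responses, and the stretches shown were chosen from members that hold such an element. Hspe1 is shown because its stretch lies between Hspe1 and Hspd1 and holds overlapping matches, although Hspe1 was called in no comparison. A promoter is here the stretch from 250 bases before to 50 bases after the annotated transcription start in RefSeq's assembly GRCr8, found for 45 of the 55 named genes by symbol. A heat shock element was searched as GAA, 2 bases, TTC, 2 bases, GAA, or as TTC, 2 bases, GAA, 2 bases, TTC, on both strands. The ER stress element was searched as CCAAT, 9 bases, CCACG, and its second form as ATTGG, any base, CCACG, also on both strands. Both ER stress elements contain CCAAT or its complement ATTGG. Capitals mark the matches in the lines that follow, which are written 5′ to 3′ along the gene's strand, and Chordc1 and Hspe1 hold overlapping matches.
Hsph1, heat shock element, GRCr8 chr12:10427312-10427364, plus strand: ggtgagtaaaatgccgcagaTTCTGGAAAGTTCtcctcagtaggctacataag
Hspa8, heat shock element, GRCr8 chr8:50080439-50080491, plus strand: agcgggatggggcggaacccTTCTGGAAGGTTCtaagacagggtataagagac
Dnaja1, heat shock element, GRCr8 chr5:60638405-60638433, plus strand: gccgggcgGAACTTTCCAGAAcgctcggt
Chordc1, heat shock elements, GRCr8 chr8:23650828-23650856, plus strand: ccgGAACGTTCGGGAAGATTCCTGAAgca
Hspe1, heat shock elements, GRCr8 chr9:64084242-64084299, plus strand: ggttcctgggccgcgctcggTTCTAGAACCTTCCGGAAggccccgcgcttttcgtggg
Hspa5, ER stress element, GRCr8 chr3:38452953-38453011, plus strand: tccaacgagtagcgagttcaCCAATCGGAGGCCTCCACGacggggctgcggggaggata
Calr, ER stress element, GRCr8 chr19:40213117-40213173, plus strand: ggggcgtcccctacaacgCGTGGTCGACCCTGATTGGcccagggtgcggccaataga
Xbp1, ER stress element, GRCr8 chr14:84604538-84604596, plus strand: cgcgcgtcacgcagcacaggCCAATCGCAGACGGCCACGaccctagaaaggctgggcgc
Herpud1, second form of the ER stress element, GRCr8 chr19:10614801-10614851, minus strand: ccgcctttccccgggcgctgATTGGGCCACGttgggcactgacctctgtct

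The heat shock element was in 7 of the 45 member promoters (15.6%), beside 0.798% of all 33469 promoters searched. Of the 24 cytosolic genes with a promoter, Chordc1, Dnaja1, Hspa8 and Hsph1 held it. Both mitochondrial genes Hspd1 and Hspe1 held it in the stretch between them, and Serpinh1 was the holder among 12 ER chaperones. The ER stress element was in 6 member promoters (13.3%), beside 0.0657% of all promoters: Calr, Canx, Dnajc3, Hsp90b1, Hspa5 and Xbp1. Its second form was in Dnajb11, Hyou1 and Herpud1 (6.67%), beside 0.0508% of all promoters. Neither form was in any of the 24 cytosolic promoters. CCAAT alone was in 30 of the 45 promoters (66.7%), beside 37.5% of all. A match is a run of letters, and no binding was measured. Elements with other letters or spacing, or outside the stretch searched, were not counted.

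**Figure D1:**
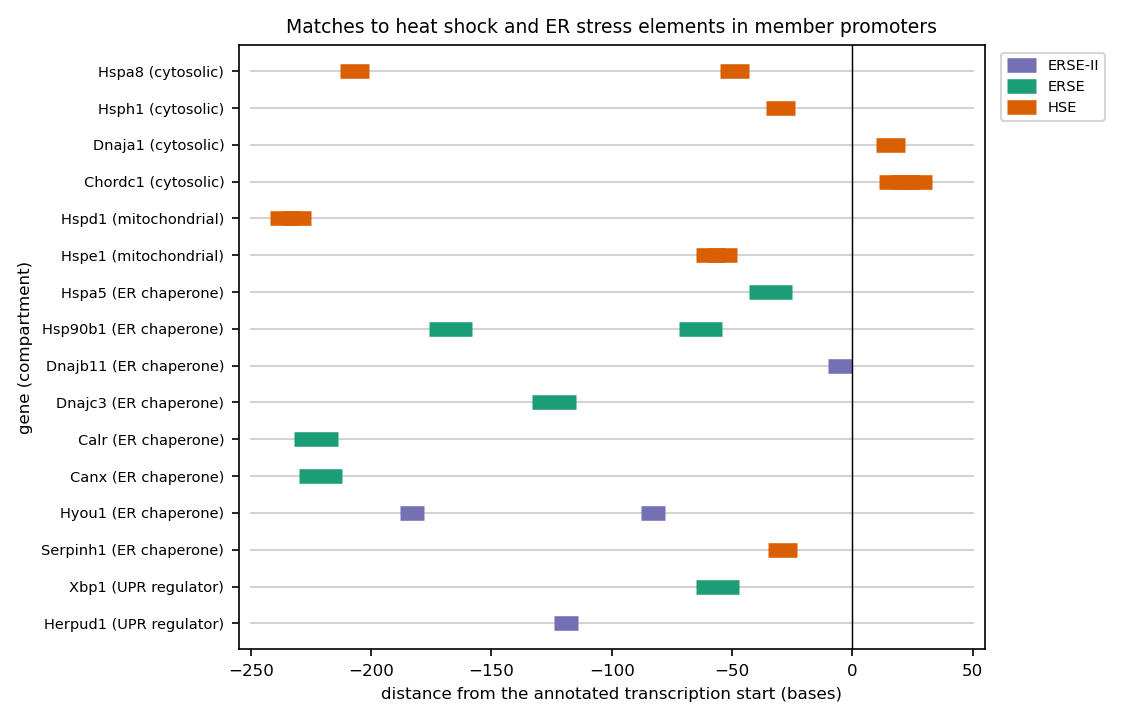
Positions of heat shock elements (HSE) and of the 2 forms of the ER stress element (ERSE, ERSE-II) in the promoters of the members that hold one, as distance in bases from the annotated transcription start, with 1 gene per line and its compartment in brackets. The 4 cytosolic genes shown hold heat shock elements and no ER stress element, and of the ER chaperones shown only Serpinh1 holds a heat shock element.

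The 18 arrays were one-colour arrays with 42877 non-control spots each, of which between 77.8% and 84.8% were well above background and none was saturated. A level is given below as the log2 signal relative to the 75th percentile of the array, so a difference of 1 between groups is a doubling. Levels of different genes come from different probes and were not set against each other. Differences are tested with limma over the 20835 genes that passed the filter, given with their standard error (SE), and a member is called higher or lower at a Benjamini-Hochberg adjusted p under 0.05. Markers of the adrenal cortex averaged between 5.22 and 5.91 on every array, far above the 75th percentile of the signals. Liver and kidney markers averaged -0.63 on SHR replicate 2 at 3 weeks and between -5.23 and -3.20 on the other 17 arrays. That array's part in the results was not tested beyond leaving it out, which gave 10 called members in place of 15 for SHR against WKY at 3 weeks. Leaving out other arrays of that comparison also cost calls. Of the 15 calls, 9 were kept without SHR replicate 3, 11 without WKY replicate 1 or 2 and 13 without WKY replicate 3. All 15 were kept without SHR replicate 1.

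In SHR at 6 weeks, 30 of 52 members (57.7%) were higher than in WKY of that age and none was lower by limma, beside 16.2% of all genes tested that were higher and 13% that were lower. The count of lower members was also 0 at an unadjusted p under 0.05. Of the 30 calls 17 held under every setting tried, and with quantile normalization 21 members were higher. Those 30 included all 7 cytosolic J proteins, 5 of 6 members of the Hsp90 group, 5 of 13 ER chaperones, and the regulators Atf4 and Xbp1. At 3 weeks the same pair of strains differed in 14 members that were higher, beside 9.02% of all genes, and in Herpud1, which was lower, beside 9.21% of all genes. The median difference over the members was 0.36 at 6 weeks and 0.08 at 3 weeks, beside medians over all genes of 0.09 and -0.01.

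SHRSP was higher than WKY at 3 weeks in 20 members (38.5%), beside 14.8% of all genes, and lower in Hsp90ab1, beside 11.4%. Without SHRSP replicate 3 at 3 weeks, 12 members in all were called in that comparison. At 6 weeks SHRSP was higher than WKY in 12 members, beside 11.1% of all genes, and lower in Hspa1b and Atf4, beside 12.8%. The median difference over the members was 0.19 at 3 weeks and 0.03 at 6 weeks.

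The 2 hypertensive strains were compared directly. At 3 weeks SHRSP was higher than SHR in Hsph1, beside 4.73% of all genes, and lower in Hspa1b, Dnajb1 and Dnajb9, beside 3.21%. These 4 calls were sensitive to single arrays: 2 members were called without SHR replicate 1, SHRSP replicate 2 or SHRSP replicate 3 at 3 weeks, and 1 without SHR replicate 2. At 6 weeks SHRSP was lower than SHR in 21 of 52 members (40.4%), beside 8.22% of all genes, and higher in Ddit3, beside 6.74%. Of the 21, 15 were cytosolic and 3 were ER chaperones. The median difference over the members at 6 weeks was -0.25, beside -0.11 over all genes. Under quantile normalization, 1631 genes were higher and 1267 lower over the whole array in place of 1405 and 1713, while 15 members were lower and Ddit3 was the member that was higher.

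Between 3 and 6 weeks, 22 members rose in SHR and none fell by limma, nor at an unadjusted p under 0.05, beside 15.1% of all genes that rose and 14.1% that fell. In WKY 6 members rose and 4 fell, beside 5.15% and 7.16% of all genes. The WKY count was 6 in all without WKY replicate 1 or 3 at 3 weeks or replicate 2 at 6 weeks, and 6 rose and 2 fell with the arrays scaled to the median of detected probes. In SHRSP 8 members rose and 8 fell, beside 10.5% and 18.5% of all genes. That split was 8 and 10 with quantile normalization and 9 and 5 with scaling to the median of detected probes, and 9 members in all were called without SHRSP replicate 2 at 6 weeks. Over the whole array SHRSP had 2189 genes that rose and 3845 that fell with age, against 2787 and 2983 with quantile normalization.

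Whether the change with age differed between strains was tested directly in the same model. The change was larger in SHR than in WKY for 6 members, beside 3.41% of all genes, and smaller for none by limma or at an unadjusted p under 0.05, beside 2.4%. Those 6 were Dnaja1, Dnajb6, Fkbp4, Hspa14, Hspb8 and Hsph1. The number was 3 without WKY replicate 1 at 3 weeks, 2 without WKY replicate 3, and 1 without WKY replicate 2 or SHR replicate 2 at 3 weeks, and it was 18 with slide as a block. Hsph1 was the member called under every setting tried. The change was lower in SHRSP than in WKY for 5 members, beside 6.36% of all genes, and higher for Dnajb6, beside 3.73%. It was lower in SHRSP than in SHR for 17 members (32.7%), beside 7.47% of all genes, and higher for none by limma, beside 4.44% (2 were higher at an unadjusted p under 0.05). The 17 were 11 with quantile normalization and 10 with scaling to the median of detected probes. Over the whole array the SHRSP and SHR changes differed upwards in 925 genes and downwards in 1557, against 1070 and 1086 with quantile normalization, which also moved the median over all genes from -0.17 to -0.06. With SHRSP against WKY, 776 genes differed upwards and 1324 downwards, against 988 each way with quantile normalization.

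**Figure D2:**
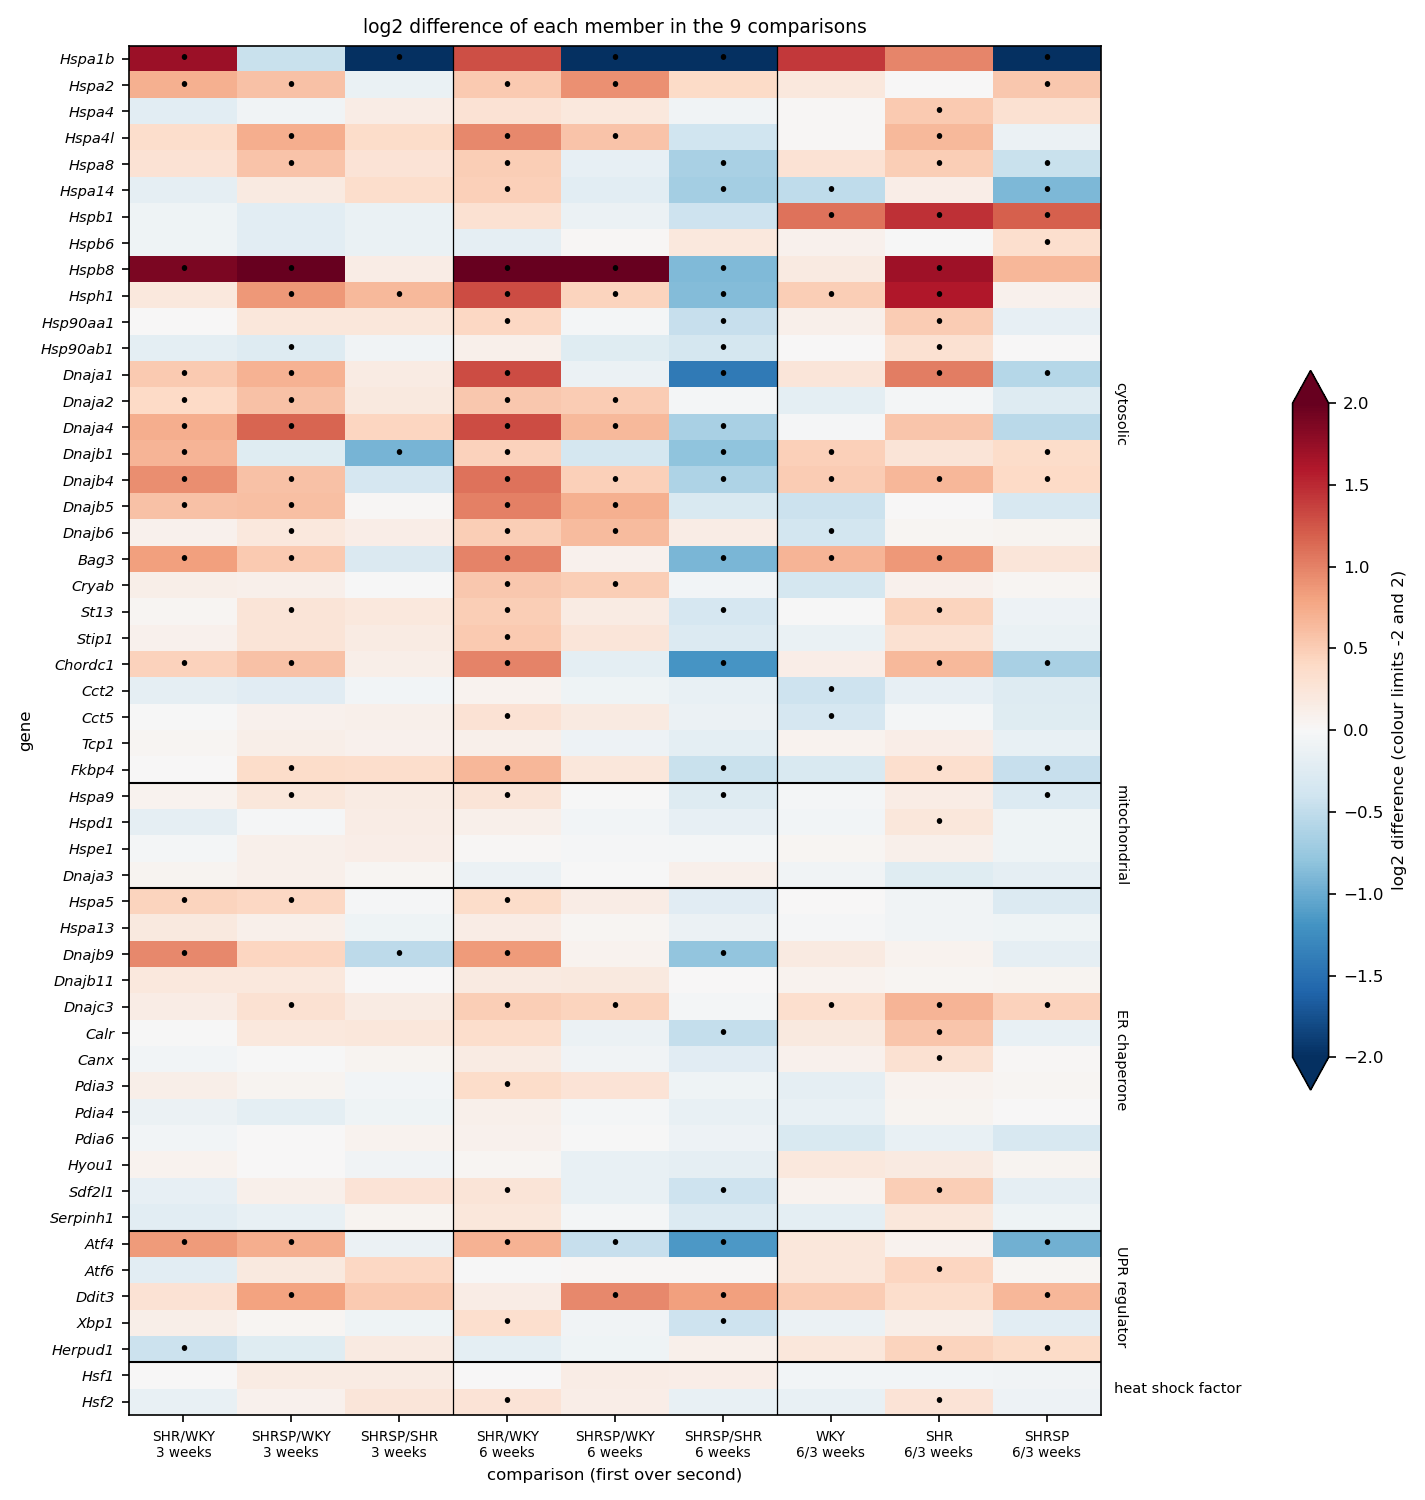
Log2 difference of each of the 52 measured members in the 9 comparisons between strains or ages (columns, first group over second), with members in rows grouped by compartment; colours stop at -2 and 2, and a dot marks a limma adjusted p under 0.05. The SHR against WKY column at 6 weeks holds 30 dots, all on positive differences, and the SHRSP against SHR column at 6 weeks holds 21 dots on negative differences and 1 on a positive one.

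The cytosolic J proteins, which hand clients to Hsp70, were the role with the most measured members. All 7 were higher in SHR than in WKY at 6 weeks, with a median difference of 1.02, beside 16.2% of all genes that were higher. At 3 weeks 6 of 7 were higher than in WKY in both SHR and SHRSP, beside 9.02% and 14.8% of all genes. Dnaja1, a J protein with a farnesylated tail, read 2.60, 2.71 and 2.63 in WKY, 3.03, 3.09 and 3.39 in SHR and 3.29, 3.24 and 3.49 in SHRSP at 3 weeks. At 6 weeks it read 2.67, 2.91 and 3.09 in WKY, 4.29, 4.11 and 4.16 in SHR and 2.87, 2.87 and 2.58 in SHRSP. The 3 SHR arrays at 6 weeks lay above all the other 15, and SHRSP at 6 weeks overlapped WKY of both ages. The 6-week difference was 1.30 ± 0.13 (adjusted p = 6.14e-06) for SHR over WKY and -1.42 ± 0.13 (adjusted p = 7.9e-06) for SHRSP over SHR, and both calls held under every setting tried. Dnaja1 rose with age in SHR, by 1.02 ± 0.13 (adjusted p = 5.53e-05), and fell in SHRSP, at -0.57 ± 0.13 (adjusted p = 0.00381), a difference of -1.59 ± 0.18 (adjusted p = 5.71e-05). At 3 weeks the SHR difference over WKY was 0.53 ± 0.13 (adjusted p = 0.00915), and it was 0.42, adjusted p = 0.0523, without SHR replicate 3. This is one of the 4 cytosolic genes whose promoter holds a heat shock element.

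Dnajb4, a J protein of the heat-inducible Hsp40 type, followed a different order. It read -2.70, -2.89 and -2.95 in WKY, -1.80, -1.92 and -2.02 in SHR and -2.30, -2.34 and -2.13 in SHRSP at 3 weeks, and -2.33, -2.36 and -2.32, -1.02, -1.34 and -1.40 and -1.82, -1.77 and -2.01 in the same order at 6 weeks. The 3 strains did not overlap at either age, with SHR highest and WKY lowest. SHR exceeded WKY by 0.94 ± 0.11 (adjusted p = 4.49e-05) at 3 weeks and 1.08 ± 0.11 (adjusted p = 8.88e-06) at 6 weeks. SHRSP exceeded WKY by 0.59 ± 0.11 (adjusted p = 0.00111) and 0.47 ± 0.11 (adjusted p = 0.00569), and it was below SHR at 6 weeks by a difference of -0.61 ± 0.11 (adjusted p = 0.00165). Dnajb4 rose with age in all 3 strains, by 0.51 in WKY, 0.66 in SHR and 0.39 in SHRSP, where the SHRSP call was lost without replicate 2 of either age. The other 5 J proteins, Dnaja2, Dnaja4, Dnajb1, Dnajb5 and Dnajb6, differed by 0.46 to 1.30 between SHR and WKY at 6 weeks. Dnajb1, named after its values were seen, was lower in SHRSP than in SHR at 3 weeks (-0.92 ± 0.13, adjusted p = 0.000506) and at 6 weeks (-0.81 ± 0.13, adjusted p = 0.00064).

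Hsp110 proteins are nucleotide exchange factors for Hsp70. Hsph1 read -2.49, -2.58 and -2.72 in WKY, -2.55, -2.53 and -2.09 in SHR and -1.75, -1.91 and -1.56 in SHRSP at 3 weeks. The 6-week levels were -2.35, -1.84 and -2.11 in WKY, -0.78, -0.74 and -0.85 in SHR and -1.51, -1.81 and -1.65 in SHRSP. The SHR arrays at 6 weeks were the highest of all, without overlap, while at 3 weeks SHR overlapped WKY and SHRSP stood above both. Hsph1 rose in SHR from 3 to 6 weeks by 1.60 ± 0.15 (adjusted p = 4.49e-06), which is 3.03-fold, and the change in SHRSP was 0.08 ± 0.15 (adjusted p = 0.734). The change in SHR exceeded that in WKY by 1.1 ± 0.21 (adjusted p = 0.00826) and that in SHRSP differed from SHR by -1.52 ± 0.21 (adjusted p = 0.000311). At 6 weeks SHR was above WKY by 1.31 ± 0.15 (adjusted p = 1.98e-05) and SHRSP was below SHR at -0.86 ± 0.15 (adjusted p = 0.00113). The SHRSP excess over WKY at 6 weeks, 0.44 ± 0.15 (adjusted p = 0.0386), was lost without WKY replicate 1 or 3 or SHRSP replicate 1 or 3 of that age, with adjusted p between 0.0839 and 0.159.

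Hspa4l, another Hsp110 protein, read -3.21, -3.07 and -2.95 in WKY, -2.35, -1.96 and -2.02 in SHR and -2.43, -2.5 and -2.58 in SHRSP at 6 weeks, and -3.13, -3.06 and -3.13, -2.92, -2.83 and -2.52 and -2.72, -2.48 and -1.95 at 3 weeks. Every SHR and SHRSP array was above every WKY array of its age. SHR exceeded WKY by 0.97 ± 0.17 (adjusted p = 0.000629) at 6 weeks and SHRSP exceeded WKY by 0.72 ± 0.17 (adjusted p = 0.005) at 3 weeks. The third member, Hspa4, was called in SHR with age alone, at 0.53 ± 0.12 (adjusted p = 0.0062).

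The Hsp70 group moved apart within itself. Hspa1b, the stress-inducible Hsp70, had the largest differences of any member. It read -0.55, -0.40 and 0.29 in WKY, 1.26, 1.70 and 1.52 in SHR and -0.14, -1.02 and -0.83 in SHRSP at 3 weeks. At 6 weeks it read -0.46, 2.02 and 2.0 in WKY, 2.66, 2.69 and 2.08 in SHR and -2.91, -2.80 and -3.07 in SHRSP. The 3 SHRSP arrays at 6 weeks were far below all others, and WKY at 6 weeks was split, with replicate 1 at the level of WKY at 3 weeks and replicates 2 and 3 near SHR. SHRSP was lower than SHR at 6 weeks by 42.4-fold, a difference of -5.41 ± 0.50 (adjusted p = 1.11e-05), and lower than WKY, at -4.11 ± 0.50 (adjusted p = 3.62e-05). The SHR excess over WKY at 6 weeks was 1.29 ± 0.50 (adjusted p = 0.068) and was not called. At 3 weeks SHR exceeded WKY by 1.72 ± 0.50 (adjusted p = 0.0276), and that call was lost without WKY replicate 1 or 2 or SHR replicate 2 or 3, with adjusted p between 0.0765 and 0.1. SHRSP fell with age by a difference of -2.26 ± 0.50 (adjusted p = 0.00377).

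The Hspa1b value rests on a single probe, at chr20:3957864-3957923 of assembly rn4, since the second probe stayed too close to background on all 18 arrays. With the mean of both probes the SHR excess at 3 weeks was 0.34, adjusted p = 0.688,, and the fall of SHRSP with age was -1.25, adjusted p = 0.0503. The 2 SHRSP differences at 6 weeks were called under every setting tried. Hspa1a is nearly identical in sequence and has no spot of its own, so which of the 2 genes the signal comes from is uncertain.

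Hspa8, the constitutive Hsp70 of the cytosol, read 5.52, 5.77 and 5.63 in WKY, 5.78, 5.94 and 6.07 in SHR and 6.12, 6.07 and 6.43 in SHRSP at 3 weeks, and 5.85, 5.89 and 6.05, 6.63, 6.32 and 6.32 and 6.03, 5.77 and 5.51 at 6 weeks. At 6 weeks SHR stood above both other strains without overlap. The difference was 0.49 ± 0.14 (adjusted p = 0.0176) over WKY and -0.65 ± 0.14 (adjusted p = 0.00602) for SHRSP over SHR. The first was lost without WKY replicate 1 or SHR replicate 1 at 6 weeks (0.45, adjusted p = 0.0597, and 0.39, adjusted p = 0.0733). At 3 weeks SHRSP exceeded WKY by 0.57 ± 0.14 (adjusted p = 0.00828), and by 0.46, adjusted p = 0.0504, without SHRSP replicate 3. Its 4 probes gave SHR differences over WKY of 0.49 to 0.84 at 6 weeks and SHRSP differences over SHR of -0.75 to -0.66.

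Hspa14, a ribosome-linked Hsp70, read 2.15, 2.27 and 2.17 in WKY, 2.15, 2.06 and 1.87 in SHR and 2.35, 2.41 and 2.39 in SHRSP at 3 weeks, and 1.73, 1.5 and 1.86, 2.09, 2.32 and 2.09 and 1.51, 1.57 and 1.35 at 6 weeks. WKY and SHRSP at 6 weeks lay below all their own 3-week arrays, while SHR overlapped its 3-week range at the upper end. The change with age was -0.50 ± 0.10 (adjusted p = 0.00633) in WKY, 0.14 ± 0.10 (adjusted p = 0.319) in SHR and -0.90 ± 0.10 (adjusted p = 2.3e-05) in SHRSP. The SHRSP change differed from that of SHR by -1.04 ± 0.15 (adjusted p = 0.000402). Hspa2, the remaining Hsp70 and a gene known for its role in spermatogenesis, was higher than WKY in both hypertensive strains at both ages, by 0.52 to 0.91, but 2 of these 4 calls rested on single arrays. The SHR call at 6 weeks was lost without WKY replicate 2 or SHR replicate 1 of that age, and the SHRSP call at 3 weeks without WKY replicate 1 or 3 or SHRSP replicate 3 of that age.

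Among the small heat shock proteins, which hold unfolded clients without ATP, Hspb8 separated the strains most. It read -5.20, -5.04 and -4.85 in WKY, -3.39, -3.35 and -2.71 in SHR and -3.28, -3.19 and -2.54 in SHRSP at 3 weeks. The 6-week levels were -4.99, -5.20 and -4.36 in WKY, -1.58, -1.48 and -1.31 in SHR and -1.92, -2.62 and -2.48 in SHRSP. All 12 arrays of the hypertensive strains lay above all 6 WKY arrays. SHR exceeded WKY by 1.88 ± 0.26 (adjusted p = 0.000187) at 3 weeks and by 3.40 ± 0.26 (adjusted p = 6.34e-07) at 6 weeks, which is 10.5-fold. SHRSP exceeded WKY by 2.03 ± 0.26 (adjusted p = 7.31e-05) and 2.51 ± 0.26 (adjusted p = 8.43e-06). These 4 calls held under every setting tried. The SHRSP difference from SHR at 6 weeks, -0.88 ± 0.26 (adjusted p = 0.0344), was lost without any one of SHR replicates 1 to 3 or SHRSP replicate 2 or 3 of that age, with adjusted p between 0.052 and 0.127.

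Hspb8 acts with the co-chaperone Bag3, which hands clients to autophagy. Bag3 was higher in SHR than in WKY at 3 weeks (0.82 ± 0.13, adjusted p = 0.000623) and at 6 weeks (1.0 ± 0.13, adjusted p = 7.54e-05), and in SHRSP at 3 weeks (0.52 ± 0.13, adjusted p = 0.00892) but not at 6 weeks (0.08 ± 0.13, adjusted p = 0.747). The 3-week SHRSP call was 0.44, adjusted p = 0.0509, without SHRSP replicate 3. Hspb1 (Hsp27), which also binds actin filaments, was called in the age comparisons. It read 2.52, 2.88 and 2.66 in WKY, 2.56, 2.62 and 2.64 in SHR and 2.30, 2.35 and 2.77 in SHRSP at 3 weeks, and 3.91, 3.67 and 3.73, 4.27, 4.02 and 3.92 and 3.50, 3.85 and 3.63 at 6 weeks. Every 6-week array lay above every 3-week array. The rise with age was 1.08 ± 0.14 (adjusted p = 0.000223) in WKY, 1.46 ± 0.14 (adjusted p = 7.13e-06) in SHR and 1.19 ± 0.14 (adjusted p = 2.82e-05) in SHRSP, and no strain comparison was called, with differences between -0.41 and 0.30. Of the other small heat shock proteins, Cryab (alpha B-crystallin) was higher than WKY at 6 weeks in SHR (0.54 ± 0.13, adjusted p = 0.00523) and in SHRSP (0.49 ± 0.13, adjusted p = 0.0104), the latter lost without SHRSP replicate 1. Hspb6 was called in SHRSP with age alone (0.33 ± 0.09, adjusted p = 0.0139), and that call was lost without SHRSP replicate 3 at 3 weeks or replicate 2 at 6 weeks.

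In the Hsp90 group, 5 of 6 members were higher in SHR than in WKY at 6 weeks, beside 16.2% of all genes. Lower in SHRSP than in SHR at that age were 5 of 6, beside 8.22% of all genes. Chordc1, an Hsp90 co-chaperone, read 1.01, 1.26 and 1.13 in WKY, 1.45, 1.57 and 1.78 in SHR and 1.69, 1.63 and 1.83 in SHRSP at 3 weeks. At 6 weeks it read 1.15, 1.14 and 1.49 in WKY, 2.39, 2.29 and 2.06 in SHR and 1.15, 1.09 and 0.96 in SHRSP. At 3 weeks both hypertensive strains stood above WKY without overlap, and at 6 weeks SHR did while SHRSP fell to the range of WKY or below. The 6-week difference was 0.99 ± 0.12 (adjusted p = 4.44e-05) for SHR over WKY and -1.18 ± 0.12 (adjusted p = 2.54e-05) for SHRSP over SHR. With age Chordc1 rose in SHR, at 0.65 ± 0.12 (adjusted p = 0.00138), and fell in SHRSP, at -0.65 ± 0.12 (adjusted p = 0.00119), and those changes differed by -1.30 ± 0.17 (adjusted p = 0.000256). The 3-week SHR difference, 0.47 ± 0.12 (adjusted p = 0.0146), was lost without WKY replicate 1 or SHR replicate 3 (0.41, adjusted p = 0.0702, and 0.38, adjusted p = 0.0781).

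Fkbp4 (FKBP52), an Hsp90 partner that promotes steroid receptor activity, read -0.04, -0.24 and 0.01 in WKY, 0.74, 0.53 and 0.44 in SHR and 0.27, 0.06 and 0.06 in SHRSP at 6 weeks, and 0.24, 0.23 and 0.19, 0.01, 0.26 and 0.41 and 0.60, 0.53 and 0.62 at 3 weeks. SHR was the highest strain at 6 weeks, and SHRSP was the highest at 3 weeks, both without overlap. The SHR difference over WKY at 6 weeks was 0.66 ± 0.11 (adjusted p = 0.000467), and the change with age in SHRSP differed from that in SHR by -0.80 ± 0.15 (adjusted p = 0.00425). Hsp90aa1, the inducible cytosolic Hsp90, read 3.51, 3.66 and 3.66 in WKY, 4.0, 4.04 and 4.05 in SHR and 3.72, 3.29 and 3.69 in SHRSP at 6 weeks, against 3.52, 3.50 and 3.51, 3.38, 3.42 and 3.76 and 3.67, 3.70 and 3.84 at 3 weeks. The SHR arrays at 6 weeks were the highest of all. The difference was 0.42 ± 0.12 (adjusted p = 0.0144) over WKY, which was 0.37, adjusted p = 0.0574, without WKY replicate 1 at 6 weeks, and -0.46 ± 0.12 (adjusted p = 0.0146) for SHRSP over SHR, which was -0.33, adjusted p = 0.0621, without SHRSP replicate 2. Both were lost with quantile normalization, at 0.25, adjusted p = 0.105, and -0.28, adjusted p = 0.0961. Hsp90aa1 also rose with age in SHR, by 0.51, and that call held under every setting tried. Its other probes gave rises of 0.53 and 0.59. Stip1 (Hop) and St13 (Hip), which link Hsp70 to Hsp90 and stabilise its client-bound state, were higher in SHR than in WKY at 6 weeks, by 0.52 ± 0.11 (adjusted p = 0.00338) and 0.49 ± 0.09 (adjusted p = 0.00102). Hsp90ab1, the constitutive Hsp90, was the one cytosolic member lower in SHRSP than in WKY at 3 weeks, at -0.26 ± 0.09 (adjusted p = 0.044), and that call was lost without any one WKY array or SHRSP replicate 1 or 2 of that age. Its second probe, well above background on all 18 arrays, gave -0.015 for that comparison, and with the mean of both probes the difference was -0.14, adjusted p = 0.262.

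The chaperonin CCT, a ring that folds actin and tubulin, had 1 call of its 3 members in the 6 strain comparisons. With age 2 of 3 fell in WKY, beside 7.16% of all genes. Cct5 read 2.10, 2.08 and 2.10 in WKY at 3 weeks and 1.93, 1.46 and 1.90 at 6 weeks, against 2.05, 2.03 and 2.06 in SHR and 1.94, 1.87 and 1.99 in SHRSP at 6 weeks. WKY replicate 2 at 6 weeks was the lowest array. Without it the SHR difference over WKY at 6 weeks, 0.28 ± 0.10 (adjusted p = 0.0412), was 0.13, adjusted p = 0.123,, and the fall of WKY with age, -0.33 ± 0.10 (adjusted p = 0.0415), was -0.18, adjusted p = 0.0972. The first call was also lost without any one SHR array at 6 weeks, and the second without any one WKY array at 3 weeks, with adjusted p between 0.0745 and 0.111. Cct2 read 1.68, 1.70 and 1.64 and 1.38, 1.01 and 1.40 in WKY at 3 and 6 weeks. Replicate 2 was again the lowest, and the fall with age, -0.41 ± 0.10 (adjusted p = 0.0172), was -0.28, adjusted p = 0.0597, without it and was also lost without WKY replicate 1 or 2 at 3 weeks. No other comparison between groups was called for Cct2 or Cct5, and none for Tcp1.

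**Figure D3:**
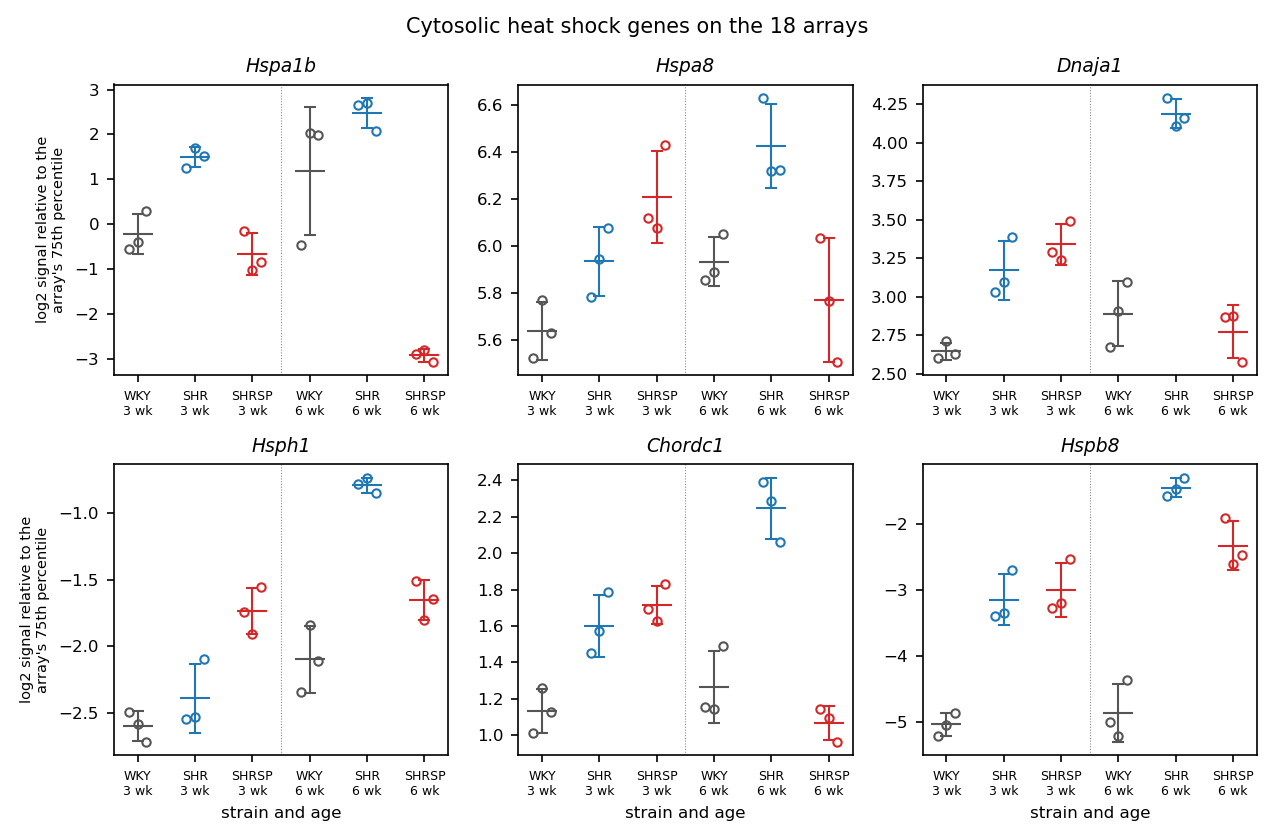
Levels of 6 cytosolic members on the 18 arrays, as log2 signal relative to the array's 75th percentile (vertical axes, each with its own range), by strain and age; circles are arrays, horizontal bars are group means and whiskers are 1 SD (n = 3). For Dnaja1, Hsph1 and Chordc1 the SHR group at 6 weeks stands above the other 5 groups, Hspa1b is lowest in SHRSP at 6 weeks, and Hspb8 is lowest in WKY at both ages.

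The 4 mitochondrial chaperones, which fold imported proteins, showed small differences. Hspd1 (Hsp60) read 7.08, 7.09 and 7.06 in WKY, 6.92, 6.89 and 6.88 in SHR and 7.01, 7.03 and 7.12 in SHRSP at 3 weeks, and 7.01, 6.93 and 7.12, 7.20, 7.12 and 7.05 and 6.90, 7.02 and 6.96 at 6 weeks. The 18 arrays spanned a narrow range, and the one call between groups was the rise of SHR with age, 0.23 ± 0.07 (adjusted p = 0.0205), which was lost without SHR replicate 2 or 3 at 3 weeks or replicate 1 at 6 weeks, and was 0.05, adjusted p = 0.579, with quantile normalization. Hspa9, the mitochondrial Hsp70, read 1.5, 1.51 and 1.48 in WKY, 1.86, 1.68 and 1.72 in SHR and 1.57, 1.42 and 1.48 in SHRSP at 6 weeks, and 1.55, 1.51 and 1.54, 1.59, 1.59 and 1.62 and 1.74, 1.67 and 1.88 at 3 weeks. SHR was above the other strains at 6 weeks without overlap. The differences were 0.26 ± 0.07 (adjusted p = 0.0137) over WKY and -0.26 ± 0.07 (adjusted p = 0.0211) for SHRSP over SHR, and both were lost without SHR replicate 1 at 6 weeks, the second also without SHRSP replicate 2 or 3, and both with quantile normalization (0.12, adjusted p = 0.257, and -0.15, adjusted p = 0.191). Hspe1 and Dnaja3 were called in no comparison, and the heat shock elements shared by Hspd1 and Hspe1 went with Hspe1 differences of -0.08 to 0.14 over the 9 comparisons.

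The 2 heat shock factors differed little between groups. Hsf1, whose protein is held inactive by chaperones, read -0.21, -0.08 and -0.23 in WKY, -0.22, -0.19 and -0.08 in SHR and -0.01, -0.02 and 0.03 in SHRSP at 3 weeks, and -0.27, -0.31 and -0.10, -0.12, -0.26 and -0.26 and 0.03, -0.02 and -0.23 at 6 weeks. The groups overlapped except that SHRSP at 3 weeks was above WKY and SHR. It was called in no comparison, with a smallest adjusted p of 0.17 for SHRSP over WKY at 3 weeks (0.17 ± 0.09, adjusted p = 0.17). Hsf2 read -1.14, -1.13 and -1.14 in WKY, -0.75, -1.03 and -0.79 in SHR and -1.03, -1.0 and -1.0 in SHRSP at 6 weeks and -0.94, -1.11 and -0.92, -1.07, -1.32 and -1.04 and -1.03, -0.82 and -0.86 at 3 weeks. The SHR excess over WKY at 6 weeks, 0.28 ± 0.10 (adjusted p = 0.0422), was lost without any one of WKY replicates 1 to 3 or SHR replicate 1 or 3 of that age, and its second probe gave -0.03.

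Among the ER chaperones, SHR exceeded WKY in 2 of 13 at 3 weeks and 5 of 13 at 6 weeks, beside 9.02% and 16.2% of all genes. SHRSP exceeded WKY in 2 of 13 and 1 of 13, beside 14.8% and 11.1% of all genes, so the SHRSP shares are near or below the background. None was lower than in WKY in these comparisons by limma, nor at an unadjusted p under 0.05. Hspa5 (BiP), the Hsp70 of the ER and the classical target of the unfolded protein response, read 3.76, 3.78 and 3.73 in WKY, 4.14, 4.19 and 4.24 in SHR and 4.08, 4.04 and 4.40 in SHRSP at 3 weeks. The 6-week levels were 3.67, 3.70 and 3.89 in WKY, 4.09, 4.04 and 4.23 in SHR and 4.09, 3.73 and 3.88 in SHRSP. SHR was above WKY without overlap at both ages, and SHRSP at 3 weeks only. The SHR difference over WKY was 0.44 ± 0.11 (adjusted p = 0.011) at 3 weeks, where the call held under every setting tried, and 0.36 ± 0.11 (adjusted p = 0.0207) at 6 weeks. The 6-week call was lost without WKY replicate 1 or 2 or SHR replicate 3 of that age, with adjusted p between 0.0573 and 0.0853, and with quantile normalization (0.19, adjusted p = 0.174). SHRSP exceeded WKY by 0.42 ± 0.11 (adjusted p = 0.00991) at 3 weeks, and by 0.31, adjusted p = 0.0575, without SHRSP replicate 3. Hspa13, a second ER Hsp70, read between 0.13 and 0.47 on all arrays and was called in no comparison.

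Dnajb9 (ERdj4), an ER J protein that is a target of Xbp1 and a partner of Hspa5, had the largest strain differences of the ER chaperones. It read -0.82, -0.72 and -0.76 in WKY, 0.20, 0.32 and 0.07 in SHR and -0.45, -0.50 and -0.04 in SHRSP at 3 weeks. At 6 weeks it read -0.61, -0.88 and -0.26 in WKY, 0.31, 0.09 and 0.41 in SHR and -0.40, -0.49 and -0.66 in SHRSP. SHR stood above WKY and SHRSP without overlap at both ages. The difference over WKY was 0.96 ± 0.15 (adjusted p = 0.00057) at 3 weeks and 0.86 ± 0.15 (adjusted p = 0.000872) at 6 weeks, and SHRSP was below SHR at 6 weeks by a difference of -0.79 ± 0.15 (adjusted p = 0.00309). These 3 calls held under every setting tried. The SHRSP difference from SHR at 3 weeks, -0.53 ± 0.15 (adjusted p = 0.0494), was lost without any one of SHR replicates 1 to 3 or SHRSP replicate 1 or 2 of that age, with adjusted p between 0.0654 and 0.183. SHRSP over WKY at 3 weeks was 0.43 ± 0.15 (adjusted p = 0.0502) and was not called.

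Dnajc3 (p58IPK), which binds clients in the ER and restrains PERK, rose with age in all strains. It read 0.64, 0.77 and 0.56 in WKY, 0.73, 0.88 and 0.78 in SHR and 0.92, 0.97 and 1.02 in SHRSP at 3 weeks, and 1.07, 0.88 and 1.01, 1.53, 1.45 and 1.44 and 1.43, 1.49 and 1.38 at 6 weeks. Both hypertensive strains were above WKY at 6 weeks without overlap and overlapped each other. The difference over WKY at 6 weeks was 0.49 ± 0.08 (adjusted p = 0.000261) in SHR and 0.45 ± 0.08 (adjusted p = 0.000564) in SHRSP. The rise with age was 0.33 ± 0.08 (adjusted p = 0.0111) in WKY, 0.68 ± 0.08 (adjusted p = 2.36e-05) in SHR and 0.47 ± 0.08 (adjusted p = 0.000393) in SHRSP, and the WKY rise was 0.28, adjusted p = 0.0605, without WKY replicate 3 at 3 weeks.

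The lectin chaperones Calr and Canx hold glycoproteins for refolding. Calr read 2.5, 2.47 and 2.68 in WKY, 2.74, 2.90 and 3.08 in SHR and 2.23, 2.54 and 2.51 in SHRSP at 6 weeks, and 2.31, 2.18 and 2.57, 2.28, 2.14 and 2.63 and 2.39, 2.63 and 2.69 at 3 weeks. SHR was the highest strain at 6 weeks and the strains overlapped at 3 weeks. The SHRSP difference from SHR at 6 weeks was -0.48 ± 0.15 (adjusted p = 0.0409), and it was lost without any one of the arrays SHR replicate 2 or 3 or SHRSP replicates 1 to 3 of that age, with adjusted p between 0.0555 and 0.164. Calr also rose with age in SHR, a call that held in 12 of 15 other settings. Canx read -2.20, -2.10 and -2.0 and -1.76, -1.74 and -1.88 in SHR at 3 and 6 weeks, -2.13, -2.05 and -1.95 and -2.03, -1.90 and -1.95 in WKY, and -2.10, -2.06 and -1.96 and -2.15, -1.88 and -2.04 in SHRSP. Its one call was the rise of SHR with age, 0.31 ± 0.09 (adjusted p = 0.0159), which was lost without SHR replicate 1 at 3 weeks or replicate 2 at 6 weeks (0.26, adjusted p = 0.0629, and 0.28, adjusted p = 0.0575). Of the disulfide isomerases, Pdia3 was called in SHR over WKY at 6 weeks (0.36 ± 0.11, adjusted p = 0.0194), a call lost without WKY replicate 2 or SHR replicate 1 of that age, while Pdia4 and Pdia6 were called in no comparison. Sdf2l1, an Hspa5 cofactor, was lower in SHRSP than in SHR at 6 weeks (-0.41 ± 0.09, adjusted p = 0.0082). It rose with age in SHR by 0.50, a call that held under every setting tried. Its excess in SHR over WKY at 6 weeks, 0.26, was also called and held in 5 of 15 other settings. Dnajb11, Hyou1 and the collagen chaperone Serpinh1 were called in no comparison.

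The regulators of the unfolded protein response went separate ways. Atf4, a transcription factor for amino acid and redox genes that is translated when PERK is active, read 3.26, 3.24 and 3.26 in WKY, 4.02, 4.19 and 4.11 in SHR and 3.68, 3.88 and 4.40 in SHRSP at 3 weeks. The 6-week levels were 3.28, 3.52 and 3.64 in WKY, 4.14, 4.09 and 4.30 in SHR and 3.24, 2.94 and 2.90 in SHRSP. SHR was above WKY at both ages without overlap, while SHRSP passed from above WKY at 3 weeks to the lowest group at 6 weeks. SHR exceeded WKY by 0.85 ± 0.15 (adjusted p = 0.00138) at 3 weeks and 0.70 ± 0.15 (adjusted p = 0.00364) at 6 weeks. SHRSP exceeded WKY by 0.73 ± 0.15 (adjusted p = 0.00272) at 3 weeks and was below SHR at 6 weeks by a difference of -1.15 ± 0.15 (adjusted p = 0.000192). Its change with age in SHRSP was -0.96 ± 0.15 (adjusted p = 0.000369), which differed from that in SHR by -1.03 ± 0.22 (adjusted p = 0.00716) and from that in WKY by -1.19 ± 0.22 (adjusted p = 0.00393). These calls held under every setting tried. The SHRSP difference from WKY at 6 weeks, -0.45 ± 0.15 (adjusted p = 0.0446), was lost without WKY replicate 2 or 3 or SHRSP replicate 2 or 3 of that age, with adjusted p between 0.105 and 0.148.

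Ddit3 (CHOP), a transcription factor downstream of Atf4 that is known for promoting cell death, parted from Atf4 at 6 weeks. Like Atf4, it was higher in SHRSP than in WKY at 3 weeks. Unlike Atf4, it was not called in SHR against WKY at either age. It read 0.31, 0.41 and 0.41 in WKY, 0.68, 0.83 and 0.51 in SHR and 0.67, 1.49 and 1.40 in SHRSP at 3 weeks, and 1.17, 0.94 and 0.56, 1.04, 1.1 and 0.95 and 1.75, 1.99 and 1.83 at 6 weeks. The 3 SHRSP arrays at 6 weeks lay above all other arrays. SHRSP exceeded WKY by 0.81 ± 0.19 (adjusted p = 0.00541) at 3 weeks and 0.97 ± 0.19 (adjusted p = 0.00172) at 6 weeks, and exceeded SHR at 6 weeks by 0.83 ± 0.19 (adjusted p = 0.00821). These 3 calls held under every setting tried. The rise of SHRSP with age, 0.67 ± 0.19 (adjusted p = 0.0157), was lost without SHRSP replicate 1 at 3 weeks (0.41, adjusted p = 0.0595) or replicate 2 at 6 weeks (0.60, adjusted p = 0.0601).

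Xbp1 read 1.76, 1.94 and 2.06 in WKY, 2.15, 2.26 and 2.36 in SHR and 1.80, 1.91 and 1.84 in SHRSP at 6 weeks, and 2.06, 2.01 and 2.03, 2.17, 2.08 and 2.19 and 2.06, 2.04 and 2.10 at 3 weeks. SHR was above both other strains at 6 weeks without overlap, and at 3 weeks it was above WKY and overlapped SHRSP. The 6-week difference was 0.34 ± 0.08 (adjusted p = 0.00606) over WKY and -0.41 ± 0.08 (adjusted p = 0.00353) for SHRSP over SHR, and the first was 0.18, adjusted p = 0.0915, with quantile normalization. The probe does not tell spliced from unspliced Xbp1, so splicing was not measured. Herpud1, an ER membrane protein that aids degradation, read 3.37, 3.38 and 3.23 in WKY, 3.10, 2.93 and 2.68 in SHR and 3.10, 3.03 and 3.11 in SHRSP at 3 weeks and 3.69, 3.56 and 3.41, 3.52, 3.32 and 3.22 and 3.31, 3.65 and 3.42 at 6 weeks. At 3 weeks both hypertensive strains were below WKY without overlap. The SHR difference, -0.42 ± 0.12 (adjusted p = 0.0241), was lost without WKY replicate 1 or 2 or SHR replicate 2 or 3 of that age, with adjusted p between 0.0585 and 0.123. Herpud1 also rose with age in SHR and in SHRSP, calls that held in 12 and in 9 of 15 other settings. Atf6 rose with age in SHR, at 0.43 ± 0.12 (adjusted p = 0.0187), a call lost without SHR replicate 1 or 2 at 3 weeks or replicate 2 at 6 weeks. Its level is uncertain, because its 2 probes on chromosome 13 of rn4 gave -0.21 and 0.22 for SHR over WKY at 3 weeks and -0.00 and 0.47 at 6 weeks.

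**Figure D4:**
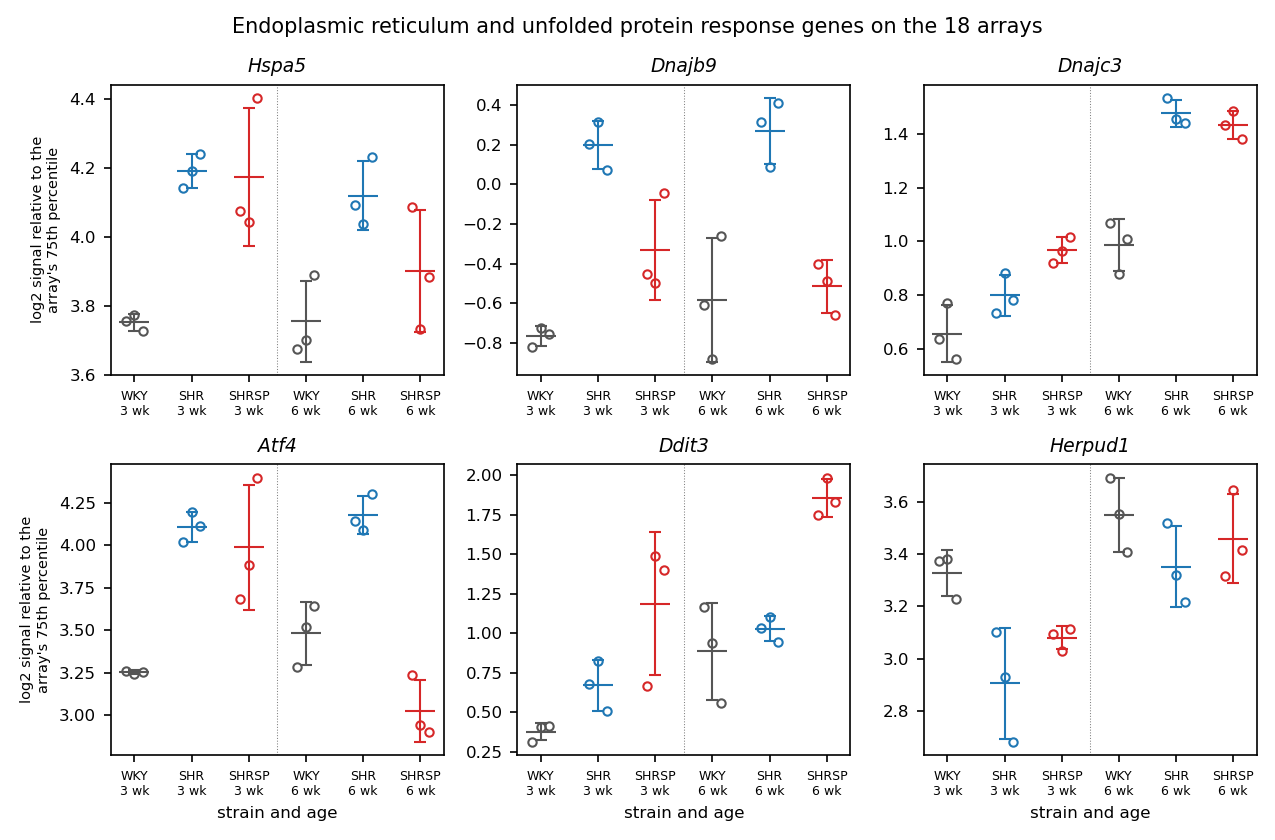
Levels of 3 ER chaperones (Hspa5, Dnajb9, Dnajc3) and 3 regulators (Atf4, Ddit3, Herpud1) on the 18 arrays, as log2 signal relative to the array's 75th percentile (vertical axes, each with its own range), by strain and age; circles are arrays, horizontal bars are group means and whiskers are 1 SD (n = 3). At 6 weeks Atf4 is lowest and Ddit3 highest in SHRSP, and Dnajb9 is highest in SHR at both ages.

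Set against each other, the cytosolic members had a median difference further from 0 than the ER chaperones in each of the 6 strain comparisons. The cytosolic median was also further from the median over all genes, except for SHRSP over SHR at 3 weeks. For SHR over WKY at 6 weeks the median difference was 0.52 over 28 cytosolic members and 0.23 over 13 ER chaperones, a gap of 0.30, beside a median of 0.09 over all genes tested. For SHRSP over SHR at 6 weeks the medians were -0.40 and -0.19, beside -0.11 over all genes. For SHR with age they were 0.39 and 0.08, beside 0.08 over all genes. Called members for SHR over WKY at 6 weeks were 21 of 28 cytosolic and 5 of 13 ER genes, all higher, beside 16.2% of all genes. For SHRSP over SHR at that age 15 of 28 and 3 of 13 were lower, beside 8.22% of all genes. For SHR with age 14 of 28 and 4 of 13 had risen, beside 15.1% of all genes. The gap for SHR with age was 0.32, and 0.21 with slide as a block. At 3 weeks the gap for SHR over WKY was 0.08, but it was -0.05 without SHR replicate 3 and 0.18 without SHR replicate 1. For SHRSP over WKY at 3 weeks it was 0.15, but 0.07 without SHRSP replicate 3 and 0.25 without SHRSP replicate 1. For SHRSP over SHR at 3 weeks the cytosolic median was 0.12 and the ER median 0, beside 0.09 over all genes. There the ER median lay further from the median over all genes. For WKY with age the gap of -0.03 had no stable direction: it was 0.075 without WKY replicate 1 at 6 weeks and ran from -0.01 upwards with other single arrays left out. For SHRSP with age it was -0.05, and between -0.16 and -0.02 with 1 array left out. These gaps are descriptions of 2 named lists and carry no test. Further lists of such genes, described below, did not show the gap for SHR over WKY at 6 weeks.

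Averaged over the 28 cytosolic members, the level at 6 weeks was 0.42 ± 0.12 in WKY, 1.14 ± 0.07 in SHR and 0.54 ± 0.08 in SHRSP (SD, n = 3). Over the 13 ER chaperones it was 0.89 ± 0.08, 1.17 ± 0.04 and 0.94 ± 0.04. In both averages the 3 SHR arrays lay above those of the other strains at 6 weeks. At 3 weeks the cytosolic average was 0.31 ± 0.04 in WKY, 0.66 ± 0.09 in SHR and 0.66 ± 0.11 in SHRSP, and the ER average was 0.87 ± 0.04, 0.99 ± 0.05 and 0.99 ± 0.06. At 3 weeks the SHR and SHRSP averages differed by less than 1 SD in both compartments.

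**Figure D5:**
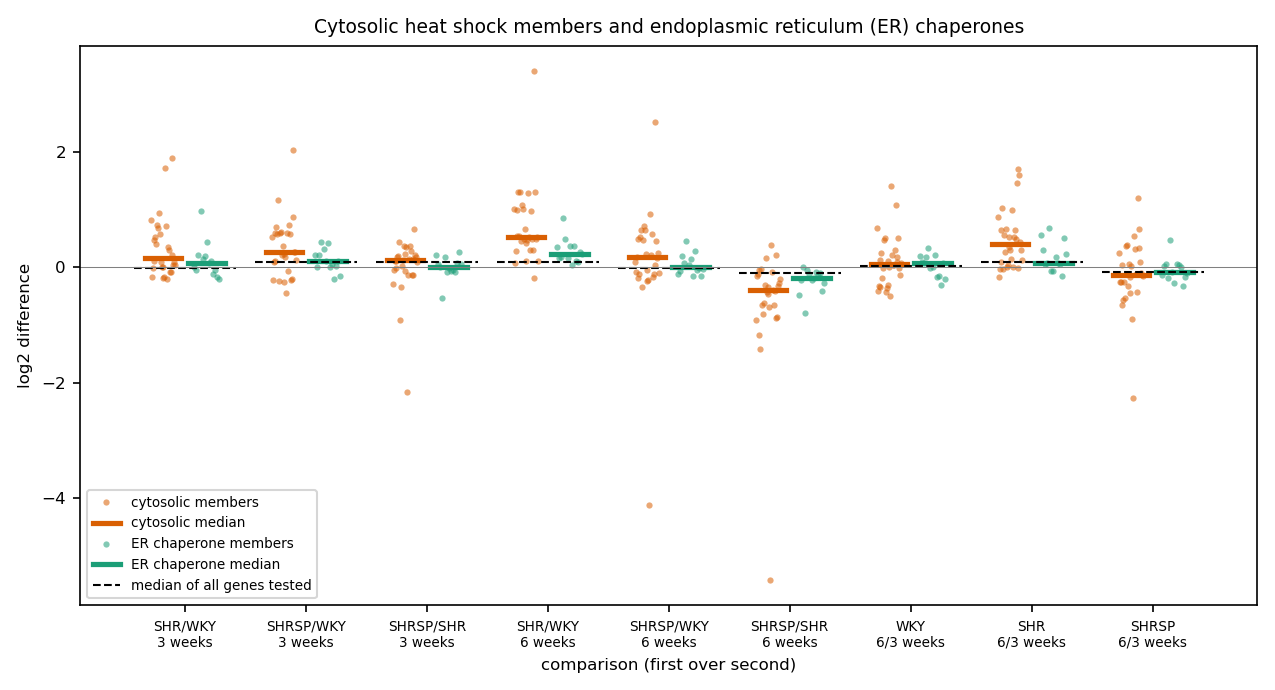
Log2 differences (vertical axis) of the 28 cytosolic members and the 13 ER chaperones in the 9 comparisons between strains or ages (first group over second); points are genes, thick bars are the median of each compartment and the dashed line is the median of all genes tested. The cytosolic median is at 0.52 and the ER median at 0.23 for SHR over WKY at 6 weeks, and they are at -0.40 and -0.19 for SHRSP over SHR at that age.

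The promoter matches can be set beside these values. Of 22 measured cytosolic members with a promoter, the 4 with a heat shock element were all higher in SHR than in WKY at 6 weeks (median 1.14) and all lower in SHRSP than in SHR (median -1.02). Of the 18 without one, 12 were higher in SHR (median 0.48) and 7 were lower in SHRSP than in SHR (median -0.33). Over all genes, 16.2% were higher in the first of these comparisons and 8.22% lower in the second. For SHRSP against WKY at 6 weeks the order was the other way: 1 of the 4 holders was higher (median -0.14), against 6 of the 18 others (median 0.19). The share of all genes that were higher there was 11.1%. At 3 weeks 2 of the 4 holders and 6 of the 18 others were higher in SHR than in WKY, beside 9.02% of all genes. In SHRSP over WKY at 3 weeks 4 and 8 were higher, beside 14.8% of all genes. Among 11 measured ER chaperones with a promoter, 2 of the 6 with an ER stress element of either form and 2 of the 5 without one were higher in SHR at 6 weeks. Dnajb4, Hsp90aa1 and Hspa1b have no promoter in the table used here. The search took exact matches within 300 bases. A gene counted as without an element may therefore hold one of another form or further away.

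Other genes of these pathways were taken from 2 further lists. Of 34 other cytosolic chaperones, 5 were higher and 4 lower in SHR than in WKY at 6 weeks, beside 16.2% and 13% of all genes. In SHRSP against SHR, 1 was higher and 2 were lower, beside 6.74% and 8.22% of all genes. These shares are near or below the background. Fkbp5 (FKBP51), an Hsp90 partner that dampens the glucocorticoid receptor, read 0.35, 0.48 and 0.53 in WKY, 1.43, 1.63 and 1.67 in SHR and 1.75, 1.73 and 1.95 in SHRSP at 3 weeks and 0.24, 0.52 and 0.63, 1.45, 1.5 and 1.40 and 0.25, 0.37 and 0.16 at 6 weeks. Both hypertensive strains were above WKY at 3 weeks and SHR alone at 6 weeks. Its change with age in SHRSP was -1.55 ± 0.11 (adjusted p = 2.81e-07), and SHR exceeded WKY at 6 weeks by 0.98 ± 0.11 (adjusted p = 1.5e-05). Hspbap1, a protein that binds Hsp27, went the other way, with SHR below WKY by a difference of -0.66 ± 0.09 (adjusted p = 6.85e-05) at 6 weeks and SHRSP at -0.00 ± 0.09 (adjusted p = 0.994). Hspb11 was lower than WKY in SHRSP at both ages, at -0.76 ± 0.12 (adjusted p = 0.000338) and -0.63 ± 0.12 (adjusted p = 0.00156).

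Of 50 other genes of the unfolded protein response, 14 were higher and 4 lower in SHR than in WKY at 6 weeks, beside 16.2% and 13% of all genes. In SHRSP against SHR, 1 was higher and 5 were lower, beside 6.74% and 8.22% of all genes, which is near or below the background. For SHR over WKY at 6 weeks the median difference was 0.12 over the 34 other cytosolic chaperones and 0.13 over these 50 genes. Over all genes it was 0.09. The lead of cytosolic members over ER chaperones was thus not seen between these further lists, of which the second is not limited to ER chaperones. Dnajc10 (ERdj5), an ER disulfide reductase, was higher than WKY in SHR and SHRSP at both ages, by 0.48 to 0.67. Pdia5 was higher in SHR at 6 weeks, by 0.64 ± 0.10 (adjusted p = 0.000229). Atf3, a stress-induced transcription factor, read -4.01, -3.65 and -3.21 in WKY, -2.31, -1.77 and -1.67 in SHR and -3.84, -3.77 and -3.50 in SHRSP at 3 weeks and -2.76, -2.49 and -2.84, -3.56, -3.57 and -3.06 and -3.66, -4.08 and -4.08 at 6 weeks. SHR was above the other strains at 3 weeks by 1.71 ± 0.22 (adjusted p = 0.000108) over WKY and below WKY at 6 weeks, at -0.70 ± 0.22 (adjusted p = 0.028).

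Several other gene lists differed between the same groups, and their part in the results was not tested. Immediate early genes respond within minutes to a stimulus and to handling. Of 31 such genes, 16 were lower and 2 higher in SHRSP than in WKY at 6 weeks, beside 12.8% and 11.1% of all genes. The mean level of the 31 was between -2.81 and -2.76 in SHRSP at 6 weeks and between -2.44 and -1.48 on the other 15 arrays. In WKY at 6 weeks it was -2.24 on replicate 1 and -1.68 on both other replicates, and replicate 1 is also the array on which Hspa1b was low. At 3 weeks 11 of the 31 were higher in SHR than in WKY and none was lower, beside 9.02% and 9.21% of all genes. Of 20 glucocorticoid response genes, 7 were lower and none higher in SHRSP than in SHR at 6 weeks, beside 8.22% and 6.74% of all genes. In SHR against WKY at 3 weeks 7 of the 20 were higher and none lower, beside 9.02% and 9.21%.

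Markers of chromaffin cells, the catecholamine cells of the medulla, were higher than in WKY in both hypertensive strains at 6 weeks, in 11 of 16 for SHR, with 1 lower, and in 10 of 16 for SHRSP. Over all genes, 16.2% were higher and 13% lower in SHR than in WKY at 6 weeks, and 11.1% and 12.8% in SHRSP. The mean level of the chromaffin markers at 6 weeks was between -0.31 and -0.11 in WKY, 0.28 and 0.44 in SHR, and 0.33 and 0.59 in SHRSP. Markers of the cortex were higher than in WKY in 5 of 13 for SHR and for SHRSP at 6 weeks and lower in none, and none was called between SHRSP and SHR. Between SHRSP and SHR at 6 weeks, where 21 members were lower, 1 chromaffin marker was called higher and none lower. The shares of all genes there were 6.74% and 8.22%. Of 12 adipose markers, 9 fell with age in SHR, 6 in SHRSP and none in WKY. Of 10 fibroblast markers, 9 fell in SHR, 9 in SHRSP and 6 in WKY. All 4 red cell markers fell in SHR and in SHRSP, and 1 fell in WKY. Over all genes tested, 14.1% fell in SHR, 18.5% in SHRSP and 7.16% in WKY. Of 14 cell cycle genes, 12 were lower in SHR and 8 in SHRSP than in WKY at 6 weeks, beside 13% and 12.8% of all genes.

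The arrays sat on 5 slides, and some slides held a single array of a group. They were scanned on 3 days, and slide 5, the one scanned on the last day, held 6-week arrays alone. For those arrays age cannot be told apart from slide and scan day. Deviations from the group means had a median correlation of 0.236 between arrays of the same slide and -0.026 between slides. The main fit held no term for slide. Slide 5 held 1 WKY and 2 SHR arrays at 6 weeks. Within that slide the medians for SHR over WKY at 6 weeks were 0.64 for cytosolic members and 0.38 for ER chaperones. For SHRSP over SHR at 6 weeks they were -0.35 and -0.11 on one slide and -0.36 and -0.21 on the other. For SHR over WKY at 3 weeks the cytosolic median was above the ER median on 2 of 3 slides, at 0.12 and 0.06 and at 0.35 and 0.06, and below it on the other, at 0.05 and 0.10. With slide as a block, 32 members were called for SHR over WKY at 6 weeks and 25 for SHRSP over SHR.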

How the data were processed

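Total RNA of 18 adrenal samples, 1 per array, was labelled with Cy3 and hybridised to one-colour Agilent rat arrays, per the labels. The authors deposited scanner output of Feature Extraction 10.5.1.1, per the file headers, and the background-subtracted processed intensity of each spot was used here. Control spots and outlier spots were left out, log2 values of repeated spots were averaged, and each array's 75th percentile was subtracted. The brightest probe of each gene name was kept, and a gene entered the test if the scanner called it well above background throughout at least 1 group of 3 arrays. Of the genes tested, 180 lacked a value on an array, and none of the members did. Group means of all 18 arrays were fitted in limma 3.58.1 (R 4.3.3), which gave 12 residual and 2.12 prior degrees of freedom, and p-values were adjusted with Benjamini-Hochberg over all 20835 genes. Figures and promoter searches used Python 3.11.15, pandas 2.3.3 and matplotlib 3.10.9. The fit was also run on simulated data with independent noise for each gene and array. That setting lacks the shared slides of these arrays, so it is a check of the code and not of the calls.

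The members and lists were chosen with earlier results of these data known, so the counts are descriptions of named lists. The genes described were, in each role, the 2 members with the smallest adjusted p in any of the 9 comparisons between strains or ages, plus Hspa1b, Hspa5, Hspa8, Hsp90aa1, Hsf1, Xbp1, Ddit3, Atf4 and Herpud1, and from each of the 2 further lists the 3 genes with the smallest adjusted p in any strain comparison. Other members named with values, such as Bag3, Dnajb1, Hspa2, Hspa4, Cryab, Hspb6, Stip1, St13, Hsp90ab1, Atf6, Pdia3 and Sdf2l1, were chosen after their values were seen. The labels call the replicates biological, and 3 arrays a group limit the precision. Of 66 member probes, 62 matched a RefSeq gene of the same symbol. Those not matched were both Hspa1b probes and the only probes of Dnajb1 and Fkbp4, so these genes rest on the array's own names. Alternatives were another background correction, 2 other scalings, 2 other filters, slide and replicate number as blocks, the arrays of the compared groups alone, the mean over probes, and each array left out in turn.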

Additional observations from a re-analysis of the deposited data

Results flagged for a closer look

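These results stood out because the change with age, or equally the strain difference at 6 against 3 weeks, differed between strains in a direct test (limma, Benjamini-Hochberg adjusted over all genes, 3 arrays a group). Values are differences between log2 changes, and the causes were not tested.

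The change with age was larger in SHR than in WKY by 1.51 ± 0.37 (SE) for Hspb8, 1.1 ± 0.21 for Hsph1, 0.77 ± 0.18 for Dnaja1, 0.65 ± 0.15 for Fkbp4, 0.64 ± 0.15 for Hspa14 and 0.40 ± 0.11 for Dnajb6. Adjusted p was 0.00826 for Hsph1 and between 0.0232 and 0.0451 for the others. Over 20 other settings the call held in all 20 for Hsph1, in 16 for Dnaja1 and Hspa14, in 14 for Fkbp4, in 12 for Hspb8 and in 8 for Dnajb6. Dnajb6, a J protein that keeps aggregation-prone proteins soluble, was also the one member whose change was larger in SHRSP than in WKY, by 0.42 ± 0.11 (adjusted p = 0.0248), which held in 16 of 20 settings.

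The change was lower in SHRSP than in WKY for 5 members, with differences of -3.67 ± 0.71 for Hspa1b, -1.19 ± 0.22 for Atf4, -0.81 ± 0.18 for Dnaja1, -0.78 ± 0.17 for Chordc1 and -0.73 ± 0.20 for Hspa8. Adjusted p was between 0.00393 and 0.0331. The call held in all 20 settings for Atf4, Chordc1 and Dnaja1, in 19 for Hspa1b and in 11 for Hspa8.

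The largest number of such differences lay between SHRSP and SHR. Against SHR, Hspa1b differed by -3.25 ± 0.71, Dnaja1 by -1.59 ± 0.18, Hsph1 by -1.52 ± 0.21, Chordc1 by -1.30 ± 0.17, Dnaja4 by -1.09 ± 0.29, Hspa14 by -1.04 ± 0.15, Hspa8 by -0.93 ± 0.20, Fkbp4 by -0.80 ± 0.15, Hspa4l by -0.77 ± 0.23, Hsp90aa1 by -0.68 ± 0.16, Bag3 by -0.62 ± 0.19 and the Hsp70 adaptor St13 by -0.54 ± 0.13. These 12 are cytosolic. Outside the cytosol, Atf4 differed by -1.03 ± 0.22, Calr by -0.70 ± 0.21, Sdf2l1 by -0.67 ± 0.13, Hspa9 by -0.43 ± 0.10 and Hspd1 by -0.32 ± 0.10. These calls were not equally firm. Over 20 other settings, 12 of which left out 1 array, the call held in 4 for Hspd1, 5 for Bag3, 8 for Hspa4l, 9 for Calr and 14 for Dnaja4, in 18 for Hspa9, and in 19 for each of Hspa1b, Hsp90aa1 and St13. It held in all 20 for the other 8, which were Atf4, Chordc1, Dnaja1, Fkbp4, Hspa14, Hspa8, Hsph1 and Sdf2l1.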

How the results depend on the processing

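No call of a member changed sign. At 3 weeks 8 of 15 calls for SHR against WKY held under every setting tried. So did 10 of 21 for SHRSP against WKY and 1 of 4 for SHRSP against SHR. In the same order 17 of 30, 7 of 14 and 10 of 22 held at 6 weeks. With age 3 of 10 held in WKY, 12 of 22 in SHR and 6 of 16 in SHRSP. Of the 183 calls of a member in a comparison, each was repeated under the alternatives that applied: 1429 of 1618 repeats under other settings and 991 of 1272 with 1 array left out stayed past the threshold. With the arrays of the compared groups alone, which leaves fewer samples to estimate the spread, 18 members were called for SHR against WKY at 6 weeks, 8 for SHRSP against WKY, 10 for SHRSP against SHR, 3 for WKY with age, 10 for SHRSP with age, and 2 for SHRSP against SHR at 3 weeks. With slide as a block 7 members were called for SHRSP against SHR at 3 weeks and 18 for the change with age of SHR against WKY, and the gap between cytosolic and ER medians for SHR with age was 0.208. For the change with age of SHRSP against SHR, 11 were called with quantile normalization and 10 with scaling to the median of detected probes; the cause was not tested.

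With 1 array left out, the called members numbered 10 to 15 for SHR against WKY, 12 to 19 for SHRSP against WKY and 1 to 5 for SHRSP against SHR at 3 weeks, and 23 to 29, 10 to 14 and 16 to 20 at 6 weeks. With age they numbered 6 to 11 in WKY, 16 to 21 in SHR and 9 to 17 in SHRSP, and for the differences between age changes 1 to 7 (SHR and WKY), 4 to 6 (SHRSP and WKY) and 12 to 17 (SHRSP and SHR). The gap between cytosolic and ER medians ran from -0.053 to 0.179, 0.070 to 0.249 and 0.048 to 0.178 at 3 weeks, from 0.251 to 0.344, 0.101 to 0.191 and -0.262 to -0.157 at 6 weeks, and with age from -0.009 to 0.075 in WKY, 0.234 to 0.357 in SHR and -0.159 to -0.016 in SHRSP.

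The labels number replicates 1 to 3 in every group, but nothing ties equal numbers together: 45 pairs of arrays with the same number had correlations of their deviations between -0.526 and 0.583 (median 0.028), and 13 were over 0.1. With the number as a replicate block, 15, 21 and 4 members were called at 3 weeks, 30, 14 and 22 at 6 weeks, 9, 23 and 18 with age in WKY, SHR and SHRSP, and 6, 6 and 16 for the differences between age changes.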
